A study of Mus musculus with 8 samples.

Results

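The mouse genes named Zfp600 to Zfp999 are zinc finger genes grouped here by the number in their symbol. They were examined in mouse ESCs depleted of Kdm2b. Members were all genes whose symbol lies between Zfp600 and Zfp999, with nothing after the number. Of 173 such symbols in the RefSeq gene table, 139 had at least 1 probe set that names the gene alone, out of 19938 genes on the array that have such a probe set. A probe set is the group of array probes that is summarised into 1 value. Of the 139 genes, all protein coding, 131 had 1 probe set, 5 had 2 and 3 had 3. A further 20 symbols stood only on probe sets that name several genes, and 14 on none, and these 34 were left out of all counts.

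Total RNA was compared between E14 cells that stably express an shRNA against Kdm2b (shKdm2b, 4 arrays, passages 27 to 30) and E14 cells that stably express a scrambled shRNA (shScr, 4 arrays, passages 28 to 31). E14 is a mouse ESC line, grown here with LIF, and both shRNAs were delivered by lentivirus with puromycin selection. Each group carries a single shRNA sequence, so that p-values measure the spread between samples of these lines and not between shRNAs. The labels call the samples biological replicates collected in parallel, and none says that a line was derived anew for each. Kdm2b read 8.68, 9.12, 9.45 and 8.91 in shKdm2b replicates 1 to 4 and 10.74, 11.10, 11.34 and 11.20 in shScr replicates 1 to 4 on the log2 scale. The log2 fold change of Kdm2b itself was -2.05, with a standard error (SE) of 0.18 and limma adjusted p = 0.000891. None of the 8 measured pluripotency markers had an adjusted p under 0.05 in limma and 5 were higher at an unadjusted p under 0.05, with list means of 13.01 to 13.06 in shKdm2b arrays and 12.70 to 12.98 in shScr arrays on the log2 scale.

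Zinc finger proteins of the C2H2 type bind DNA through repeated fingers, each held together by a zinc ion. In the mouse many of them also carry a KRAB domain, which recruits the corepressor TRIM28 and, through it, the histone methyltransferase SETDB1 and HP1 proteins. Such KRAB zinc finger genes arose by repeated duplication, lie in clusters of related copies, and are known in ESCs for silencing retroelements. The number range holds KRAB genes together with unrelated zinc finger genes, and the number says nothing about the function. KDM2B binds non-methylated CpG dinucleotides at CpG islands and brings a PRC1 complex there, so that the CpG content of the region before each gene was also read.

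Few of these genes changed, and those that met the full rule were lower. Of the 139 genes, 4 fell, none rose and the others did not meet the gene rule, which asks that most of a gene's probe sets have an adjusted p under 0.05 and that the most significant one changes at least 1.5-fold. The 4 genes were Zfp619, Zfp605, Zfp882 and Zfp608. They make up 2.88% of the members, against 1.43% of all genes called lower by the same rule, 1.42% called higher and 2.85% called in either direction. At the adjusted p alone, 10 members were lower and 5 higher, or 7.19% and 3.60%, against 4.55% and 5.75% of all genes. Together they were 10.8% of the members against 10.3% of all genes, so that the share of members that passed is near the background. Both counts moved with single arrays. Without shKdm2b replicate 2, 1 member was called lower and 3 passed the adjusted p, and without shKdm2b replicate 3, 6 were called lower and 35 passed, while 3.25% and 17.3% of all genes passed. The gene rule called 358 and 829 of the 19938 genes in these fits, against 569 with all arrays. Without shKdm2b replicate 4 or shScr replicate 2, 3 or 4, 2 or 3 members were called lower and 5 to 7 passed. These were 3.6% to 5.04% of the members, against 3.54% to 4.43% of all genes in the same fits. By the gene rule, those fits called 366 to 428 of all genes. In bulk RNA, fewer cells that express a gene and less RNA per cell cannot be told apart.

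**Figure D1:**
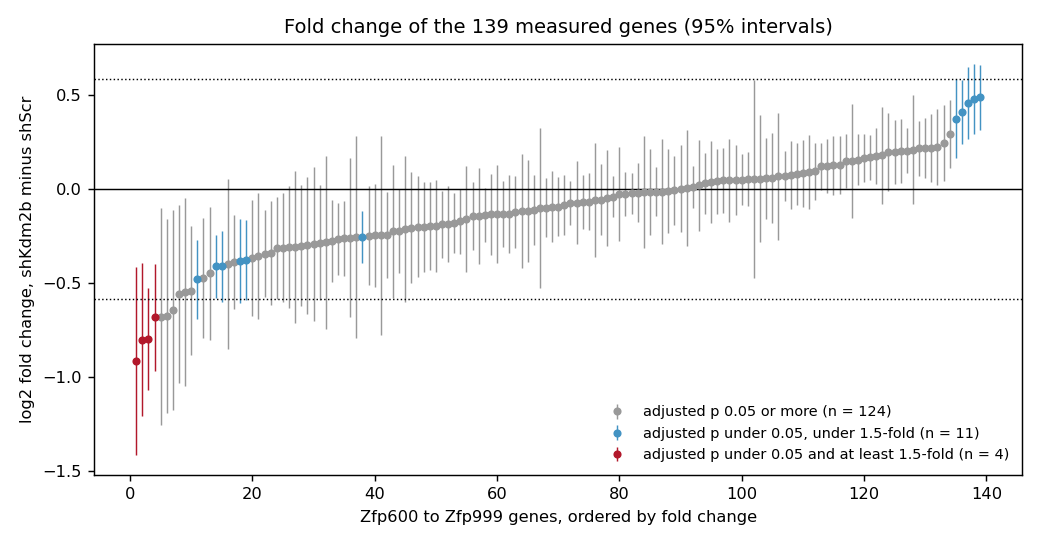
Log2 fold change (shKdm2b minus shScr, y axis) of each of the 139 genes, ordered along the x axis from lowest to highest, with 95% confidence intervals from limma (n = 4 arrays per group); dotted lines mark 1.5-fold. The 4 genes that met the gene rule (red) lie at the low end, and 10 of the 15 genes past the adjusted p are below 0.

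The fold changes of the whole group were nonetheless placed lower than those of most genes. The median log2 fold change of the 139 genes was -0.10, with quartiles of -0.26 and 0.06, against a median of 0.05 over all genes. A value below 0 was found for 89 members (64.0%), against 38.3% of all genes. For the 178 genes named Zfp1 to Zfp599 the median was -0.03, with 57.9% below 0, 3 called lower and 2 called higher. These are descriptions, and no test of the difference between the groups was made. At an unadjusted p under 0.05, 32 members were lower and 19 higher, or 23.0% and 13.7%, against 13.6% and 16.8% of all genes.

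**Figure D2:**
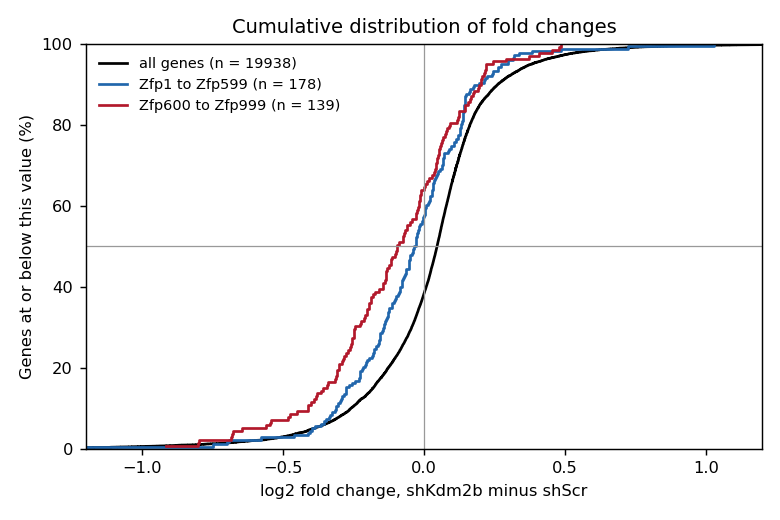
Share of genes (y axis, percent) at or below each log2 fold change (x axis) for the 139 genes Zfp600 to Zfp999, the 178 genes Zfp1 to Zfp599 and all 19938 genes; values beyond 1.2 on either side are not drawn. The curves cross the 50% line at medians of -0.10, -0.03 and 0.05.

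The lower position was not shared evenly by the knockdown arrays. Relative to the mean of the shScr arrays for each probe set, the median member lay at -0.21 in shKdm2b replicate 1, -0.07 in replicate 2, -0.01 in replicate 3 and -0.12 in replicate 4 on the log2 scale. In the shScr arrays it lay between -0.02 and 0.01, so that shKdm2b replicate 3 fell inside the range of the controls and the other knockdown arrays fell below it. Among the 89 members below 0, replicate 1 was the lowest knockdown array for 55 genes (61.8%) and replicate 3 the highest for 61 (68.5%). Over all genes below 0 the same arrays were lowest and highest for 33.7% and 47.2%. The 50 members above 0 had the reverse order, with replicate 1 highest for 22 (44%) and replicate 3 lowest for 21 (42%). Taking all 139 members, replicate 1 was the lowest for 49.6% and replicate 3 the highest for 54.7%. Over all genes of either sign, replicate 1 was the highest knockdown array for 47.4% and replicate 3 the lowest for 40.5%. The median of the genes Zfp1 to Zfp599 lay at -0.07, -0.03, 0.04 and -0.06 in shKdm2b replicates 1 to 4. That of all genes lay at 0.10, 0.04, 0.0001 and 0.02, so that these arrays also differed across the whole array. The SD within the shKdm2b arrays had a median of 0.161 over the members and that within the shScr arrays a median of 0.101, against 0.115 and 0.0891 over all genes. The median fold change of the members was -0.06 without shKdm2b replicate 1 and -0.13 without shKdm2b replicate 3, against 0.02 and 0.06 over all genes. Kdm2b itself was lowest in replicate 1 (8.68) and highest in replicate 3 (9.45) among the knockdown arrays. Among the shScr arrays it was also lowest in replicate 1 (10.74) and highest in replicate 3 (11.34). The part of Kdm2b in the order of the members was not tested.

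Zfp619, a gene for a C2H2 zinc finger protein on chromosome 7, had the smallest adjusted p of the group. Its log2 signal was 8.44, 8.66, 8.82 and 8.37 in shKdm2b replicates 1 to 4, and 9.27, 9.50, 9.53 and 9.18 in shScr replicates 1 to 4. Every knockdown array thus lay below every control array. The gene fell by 0.80 on the log2 scale (SE 0.12, limma adjusted p = 0.00798), a loss of signal by a factor of 1.74. Of the 4 genes it alone kept its call without any 1 array, at adjusted p of 0.00556 to 0.0286 from limma.

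Zfp605, a KRAB zinc finger gene on chromosome 5, read 7.76, 7.999, 8.26 and 8.16 in shKdm2b replicates 1 to 4. The shScr replicates 1 to 4 read 8.55, 8.72, 8.67 and 8.97, again with no overlap. The log2 fold change was -0.68 (SE 0.12, limma adjusted p = 0.0164). Its call was lost without shKdm2b replicate 2, at limma adjusted p = 0.0563, within a range of 0.0109 to 0.0563 over the arrays left out.

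Zfp608, on chromosome 18, encodes a paralogue of ZFP609 that is known for lowering the expression of the Rag genes in thymocytes. Its knockdown arrays were tightly grouped, at 8.34, 8.27, 8.23 and 8.37 for replicates 1 to 4, whereas the control arrays spread over 8.83, 8.78, 9.85 and 9.42. The log2 fold change of -0.92 was the largest fall in the group (SE 0.22, limma adjusted p = 0.0389). The spread of its controls was wider than that of its knockdown arrays, and the call was lost without any 1 array but shScr replicate 1 or 2, at adjusted p of up to 0.101 from limma. Without shScr replicate 3 the log2 fold change was -0.71.

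Zfp882 lies on chromosome 8, shortly before Zfp617 and Zfp961, and all 3 genes were lower. Zfp882 read 8.16, 8.81, 9.15 and 8.72 in shKdm2b replicates 1 to 4, against 9.48, 9.55, 9.58 and 9.43 in shScr replicates 1 to 4, and fell by 0.80 on the log2 scale (SE 0.18, limma adjusted p = 0.0307). Zfp617 read 8.59, 8.74, 9.03 and 8.70 against 9.18, 9.06, 9.20 and 9.14, a fall by 0.38 (SE 0.09, limma adjusted p = 0.0438). Zfp961 read 11.87, 12.09, 12.32 and 11.89 against 12.38, 12.46, 12.44 and 12.42, also a fall by 0.38 (SE 0.10, limma adjusted p = 0.0490). For each of these genes, shKdm2b replicate 3 was the knockdown array nearest to the controls and replicate 1 the farthest. Zfp617 and Zfp961 stayed short of 1.5-fold. Zfp882 kept its call only without shKdm2b replicate 1 or 3, with a highest adjusted p of 0.0882 from limma, and Zfp617 and Zfp961 passed only without shKdm2b replicate 3, with highest values of 0.120 and 0.124. With arrays centred on their medians Zfp617 and Zfp961 had limma adjusted p = 0.0526 and 0.0533. Zfp709, which completes this run of neighbours, had a log2 fold change of -0.26 (SE 0.24, limma adjusted p = 0.525).

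The starts of Zfp882 and Zfp617 are 14219 bases apart and those of Zfp617 and Zfp961 are 28241 bases apart in the RefSeq promoter table for GRCm38.p6. The 250 bases before each start are shown because these neighbours fell together, with every CpG dinucleotide in capitals, at chr8:71908356-71908605, chr8:71922575-71922824 and chr8:71950816-71951065, all on the plus strand.
Zfp882: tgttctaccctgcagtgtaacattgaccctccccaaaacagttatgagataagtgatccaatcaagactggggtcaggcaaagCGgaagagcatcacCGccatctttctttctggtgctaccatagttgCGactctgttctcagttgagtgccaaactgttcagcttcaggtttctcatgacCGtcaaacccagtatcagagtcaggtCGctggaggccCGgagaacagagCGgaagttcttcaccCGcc
Zfp617: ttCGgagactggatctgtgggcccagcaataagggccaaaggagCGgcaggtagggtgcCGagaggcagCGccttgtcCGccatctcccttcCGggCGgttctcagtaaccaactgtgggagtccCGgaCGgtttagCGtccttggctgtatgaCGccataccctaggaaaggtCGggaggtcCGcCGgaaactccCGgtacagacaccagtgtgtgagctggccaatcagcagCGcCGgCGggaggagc
Zfp961: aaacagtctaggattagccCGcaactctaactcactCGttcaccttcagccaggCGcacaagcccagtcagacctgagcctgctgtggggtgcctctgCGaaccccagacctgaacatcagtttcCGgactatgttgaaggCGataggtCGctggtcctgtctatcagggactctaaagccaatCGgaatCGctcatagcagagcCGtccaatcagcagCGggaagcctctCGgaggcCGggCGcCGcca
The printed stretches hold 8, 18 and 15 CpG. Over the full window, which adds 50 bases after the start, the ratio of observed to expected CpG was 0.51 for Zfp882, 0.72 for Zfp617 and 0.83 for Zfp961. The window of Zfp882 thus holds fewer CpG than those of its neighbours.

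The same stretches before Zfp619 (chr7:39517516-39517765, plus strand) and Zfp605 (chr5:110109842-110110091, plus strand) are given because these genes, like Zfp882, met the full rule, and that before Zfp827 (chr8:79028187-79028436, plus strand) because it rose.
Zfp619: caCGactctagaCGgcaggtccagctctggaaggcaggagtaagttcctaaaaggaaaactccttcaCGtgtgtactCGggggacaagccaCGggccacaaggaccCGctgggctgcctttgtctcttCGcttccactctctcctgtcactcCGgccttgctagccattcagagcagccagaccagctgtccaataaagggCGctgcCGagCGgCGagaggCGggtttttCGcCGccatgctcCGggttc
Zfp605: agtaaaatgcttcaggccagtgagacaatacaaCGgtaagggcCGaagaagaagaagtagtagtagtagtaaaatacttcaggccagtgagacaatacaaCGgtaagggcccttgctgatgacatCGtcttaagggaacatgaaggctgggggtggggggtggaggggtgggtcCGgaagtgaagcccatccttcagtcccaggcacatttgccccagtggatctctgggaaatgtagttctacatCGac
Zfp827: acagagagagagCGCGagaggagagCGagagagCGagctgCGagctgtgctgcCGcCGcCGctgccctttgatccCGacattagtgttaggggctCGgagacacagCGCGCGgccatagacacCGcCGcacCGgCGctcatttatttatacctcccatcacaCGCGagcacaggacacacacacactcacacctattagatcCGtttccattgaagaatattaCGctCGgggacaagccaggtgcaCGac
Here 16, 6 and 23 CpG are printed. Zfp605 and Zfp619, which both fell, thus stand far apart in CpG content, with observed to expected ratios of 0.36 and 0.75 over the full window, while that of Zfp827 was 1.195.

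In all, 121 of the 139 genes had a window in the RefSeq promoter table, and for a gene with several windows the one with the most CpG was used. Zfp608 and Zfp704 are not among the 121. A window was called CpG-rich when its GC content was over 50% and its observed to expected CpG ratio over 0.6, which held for 57 members (47.1%) and for 52.1% of 15614 genes. The 57 CpG-rich members had a median log2 fold change of -0.04 and the other 64 a median of -0.13. Over all genes the order was the opposite, with medians of 0.01 for CpG-rich windows and 0.06 for the rest. Of the members that passed the adjusted p, 5 lower and 2 higher had a CpG-rich window, and 4 lower and 2 higher did not. Both classes thus held members that fell and members that rose.

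Each window was also searched on both strands for the letters AAGATGG, the core of the YY1 site, and GCATGCG, that of the NRF1 site. The first was found in 11 members (9.09%) against 6.50% of 27025 windows, 1 per gene, and the second in 10 members (8.26%) against 3.72%. Zfp882 and Zfp617 were the members past the adjusted p that held the first, and no member past the adjusted p held the second. A single member window held both. Such matches describe the sequence and do not show that a factor binds there.

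Genes that passed the adjusted p while lower but short of 1.5-fold were, besides Zfp617 and Zfp961, Zfp866, Zfp618, Zfp846 and Zfp871. Zfp866, another gene of chromosome 8, read 9.61, 9.82, 10.07 and 9.72 in shKdm2b replicates 1 to 4 and 10.29, 10.27, 10.34 and 10.26 in shScr replicates 1 to 4. It fell by 0.48 (SE 0.09, limma adjusted p = 0.0201). Zfp618, which encodes a partner of UHRF2 in the recognition of hydroxymethylated DNA, fell by 0.41 from control values of 9.47 to 9.70 to knockdown values of 9.04 to 9.27 (SE 0.07, limma adjusted p = 0.0152). Zfp846 fell by 0.41 as well (SE 0.08, limma adjusted p = 0.0227), and Zfp871 by 0.26 (SE 0.06, limma adjusted p = 0.0370). In all 4 genes the knockdown arrays lay below the control arrays. Without shKdm2b replicate 2 or 4, or shScr replicate 2, 3 or 4, the adjusted p of Zfp866, Zfp846 and Zfp871 exceeded 0.05, with highest values of 0.0646, 0.0707 and 0.111 from limma, and Zfp871 did not pass without shKdm2b replicate 1 either. That of Zfp618 exceeded it only without shScr replicate 3, at 0.0511.

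The 5 genes that rose were Zfp704, Zfp827, Zfp773, Zfp948 and Zfp777, none of them by 1.5-fold. Zfp704, a gene induced by glucocorticoids, read 10.81, 10.80, 10.63 and 10.83 in shKdm2b replicates 1 to 4 and 10.41, 10.34, 10.15 and 10.23 in shScr replicates 1 to 4. The log2 rise was 0.49, which is 1.40-fold (SE 0.08, limma adjusted p = 0.00904), and passed without any 1 array, at up to 0.0367. Zfp827, whose product recruits the NuRD complex to telomeric chromatin, read 10.11, 10.26, 10.38 and 10.05 against 9.84, 9.67, 9.70 and 9.67. The rise was 0.48, or 1.39-fold (SE 0.08, limma adjusted p = 0.0133), and was lost only without shKdm2b replicate 2, at 0.0506. The rises of Zfp773 and Zfp948 were 0.45 and 0.41 (SEs 0.08 and 0.07, limma adjusted p = 0.0179 and 0.0168). Zfp777, which encodes a KRAB zinc finger protein, rose by 0.37 (SE 0.09, limma adjusted p = 0.0417). For all 5 genes the knockdown arrays lay above the control arrays. Zfp773 did not pass without shKdm2b replicate 2 or shScr replicate 2 or 3, Zfp948 without shKdm2b replicate 2 or shScr replicate 3, and Zfp777 without any 1 array but shKdm2b replicate 3 or shScr replicate 1, with highest adjusted p of 0.0589, 0.0543 and 0.109 from limma.

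**Figure D3:**
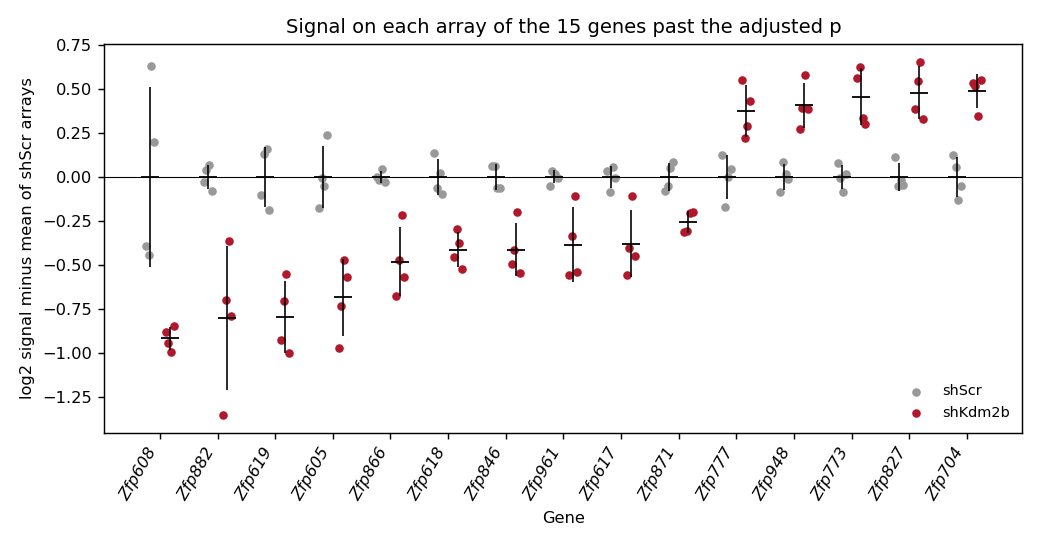
Log2 signal on each of the 8 arrays minus the mean of the shScr arrays (y axis) for the 15 genes with an adjusted p under 0.05 (x axis); points are arrays, and bars give mean and SD over the 4 arrays of a group. For the 10 genes at the left all knockdown arrays lie below all control arrays, and for the 5 at the right all lie above.

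In 31 of the 139 genes (22.3%) the ranges of the groups did not overlap, with the knockdown below in 18 and above in 13, against 21.0% of all genes, 9.18% below and 11.8% above. The share of members with separated groups was thus close to that over the array. The 95% confidence interval lay within 1.5-fold in both directions for 102 members (73.4%), against 86.8% of all genes. For the other 37 members a change of 1.5-fold was inside the interval or the gene had passed it, so that a missed test does not show an unchanged level.

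With the replicate number as a block, which the pairing of the arrays allows, 25 members passed the adjusted p, 19 lower and 6 higher, against 14.2% of all genes in that fit. The share of members was 18.0%. The 15 genes above were all among them, and 6 genes met the gene rule, all lower, with Zfp719 and Zfp819 added to the 4. Calls over all 19938 genes also rose with the block, from 569 to 652 in either direction. When only passages 28 to 30 were compared with passage as a block, no member passed (limma), against 0.802% of all genes in that smaller fit of 6 arrays. Zfp619, Zfp605, Zfp882 and Zfp608 then had log2 fold changes of -0.81, -0.51, -0.64 and -0.86, at adjusted p of 0.0779, 0.0686, 0.0849 and 0.147 from limma. Replicates 1 to 4 are successive passages in each group, so that arrays with the same number differ in passage. The passage block thus sets shKdm2b replicates 2, 3 and 4 beside shScr replicates 1, 2 and 3. Once group means were removed, these pairs correlated at -0.0454, -0.0899 and -0.0977, so that this block cuts across the pairing by replicate number. The part of passage in the lost calls was not tested.

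Several members with larger fold changes did not pass the test. Zfp985 and Zfp982, in a cluster on chromosome 4, had log2 fold changes of -0.68 and -0.55 (SEs 0.25 and 0.22, limma adjusted p = 0.135 and 0.161). For Zfp985 the arrays read 8.99, 10.02, 10.32 and 10.02 in shKdm2b replicates 1 to 4 and 10.33, 10.58, 10.55 and 10.62 in shScr replicates 1 to 4. Replicate 1 stood well below the other knockdown arrays, and replicate 3 was level with the lowest control. All 3 probe sets of Zfp985 gave like values, from -0.68 to -0.53. Zfp935, on chromosome 13, and Zfp931, on chromosome 2, had log2 fold changes of -0.56 and -0.54 (SEs 0.21 and 0.15, limma adjusted p = 0.135 and 0.0615). Zfp931 passed without shScr replicate 3, at limma adjusted p = 0.0326, where its log2 fold change was -0.67, and it then also met the gene rule. Zfp935 did so without shKdm2b replicate 3, at 0.0425.

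Zfp719 and Zfp819 are neighbours on chromosome 7. Zfp819, an ESC-expressed KRAB gene linked to repression of retroelements, read 8.96, 9.25, 9.89 and 8.89 in shKdm2b replicates 1 to 4 and 9.63, 10.09, 10.22 and 9.63 in shScr replicates 1 to 4. Replicate 3 of the knockdown lay inside the control range, and the log2 fold change was -0.64 (SE 0.23, limma adjusted p = 0.127). Within each replicate number the knockdown array was the lower one, and with the block limma adjusted p = 0.0165. Zfp719 had a log2 fold change of -0.68 (SE 0.23, limma adjusted p = 0.103, and 0.0484 with the block). Without shKdm2b replicate 3 both genes met the gene rule, at -0.90 for Zfp719 and -0.86 for Zfp819.

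Members with a role in chromatin and in retroelement control were read whatever their values. Of 19 genes listed by name, 15 had a probe set of their own, of which 1 rose (Zfp827), 1 fell (Zfp961) and 13 did not pass the adjusted p, with none called by the gene rule. Over all genes 5.75% were higher and 4.55% lower past the adjusted p, or 10.3% together. Counts over so short a list do not set these genes apart from that share. Zfp638 encodes NP220, a protein that brings the HUSH complex to unintegrated retroviral DNA. Its arrays read 10.72, 11.31, 11.37 and 11.18 in shKdm2b replicates 1 to 4 and 11.47, 11.60, 11.76 and 11.66 in shScr replicates 1 to 4, without overlap. The log2 fold change was -0.48 (SE 0.14, limma adjusted p = 0.0735, and 0.0276 with the block). Zfp644, which encodes a partner of the G9a and GLP histone methyltransferases, had a log2 fold change of -0.39 (SE 0.11, limma adjusted p = 0.0638, and 0.0181 with the block).

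Zfp809 encodes the KRAB protein that silences murine leukaemia virus through its primer binding site. It read 11.78, 12.08, 12.26 and 11.87 in shKdm2b replicates 1 to 4 and 12.05, 12.26, 12.33 and 12.35 in shScr replicates 1 to 4, with overlap. The log2 fold change was -0.25 (SE 0.12, 95% confidence interval -0.51 to 0.01, limma adjusted p = 0.214). Zfp600, also a gene of chromosome 4, had a log2 fold change of -0.31 (SE 0.14, limma adjusted p = 0.213). Zfp708, a KRAB gene that acts on retroelements in the germ line, had one of 0.05 (SE 0.06, 95% confidence interval -0.09 to 0.19, limma adjusted p = 0.651).

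The other members listed by name did not pass the adjusted p. Zfp687, whose product works with ZMYND8, had a log2 fold change of 0.21 (SE 0.06, limma adjusted p = 0.0783), with all knockdown arrays above the controls. Zfp706, a small zinc finger gene tied to exit from ESC self-renewal, differed by -0.03 (95% confidence interval -0.15 to 0.09), so that its interval reached far less than 1.5-fold. Zfp703, of the NET family, had a log2 fold change of 0.08 and Zfp746, which encodes PARIS, a substrate of parkin, one of -0.02 (SEs 0.07 and 0.12, limma adjusted p = 0.519 and 0.948). Zfp711, an X-linked partner of PHF8, had -0.13 and Zfp750, an epidermal differentiation gene, -0.06 (SEs 0.09 and 0.13, limma adjusted p = 0.402 and 0.801). With Zfp706, the members whose intervals reached least far from 0 were Zfp641, Zfp790, Zfp764, Zfp651 and Zfp606, whose log2 fold changes ran from -0.04 to 0.01.

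**Figure D4:**
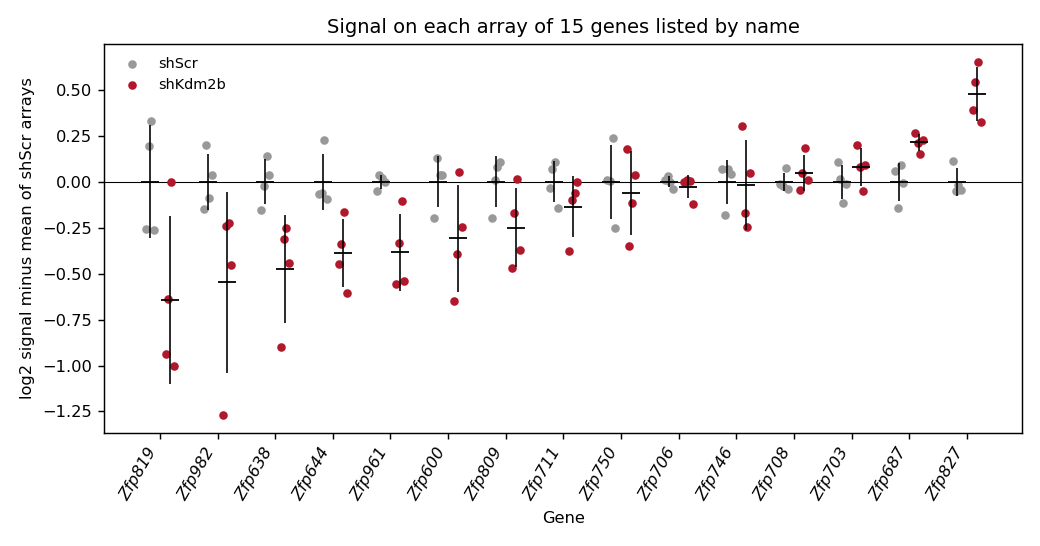
Log2 signal on each of the 8 arrays minus the mean of the shScr arrays (y axis) for the 15 measured genes that were listed by name (x axis, ordered by fold change); points are arrays, and bars give mean and SD over the 4 arrays of a group. Zfp819 spreads widely in both groups, whereas Zfp706 and Zfp708 stay near 0.

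Zinc finger genes lie in clusters, and 69 of the 139 genes belonged to 14 runs of at least 3 measured members in which successive starts were at most 500000 bases apart. The median log2 fold change was -0.14 in the runs and -0.03 for the 70 other genes, with 5 genes lower and 3 higher past the adjusted p in the runs and 5 and 2 outside. Of the genes below 0, 50 lay in runs and 39 outside. The lowest medians were -0.40 for 5 genes on chromosome 4 from Zfp991 to Zfp933, -0.38 for the run of Zfp882, and -0.38 for 4 genes on chromosome 7 from Zfp715 to Zfp819. In the chromosome 4 run, all 5 genes were below 0, between -0.68 and -0.12, and none passed.

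The largest run, of 12 genes on chromosome 17 from Zfp677 to Zfp945, held values on both sides. There 11 genes lay below 0 and the run had a median of -0.19, with none past the adjusted p, while Zfp948 rose. Its log2 signal was 11.28, 11.39, 11.58 and 11.39 in shKdm2b replicates 1 to 4 and 10.92, 11.09, 11.02 and 10.99 in shScr replicates 1 to 4. Neighbouring copies can share probe sequence, so that members of a run are not independent readings. The 3 probe sets of Zfp640 ran from -0.25 to -0.22, and the 2 probe sets of Zfp788 held the same values.

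**Figure D5:**
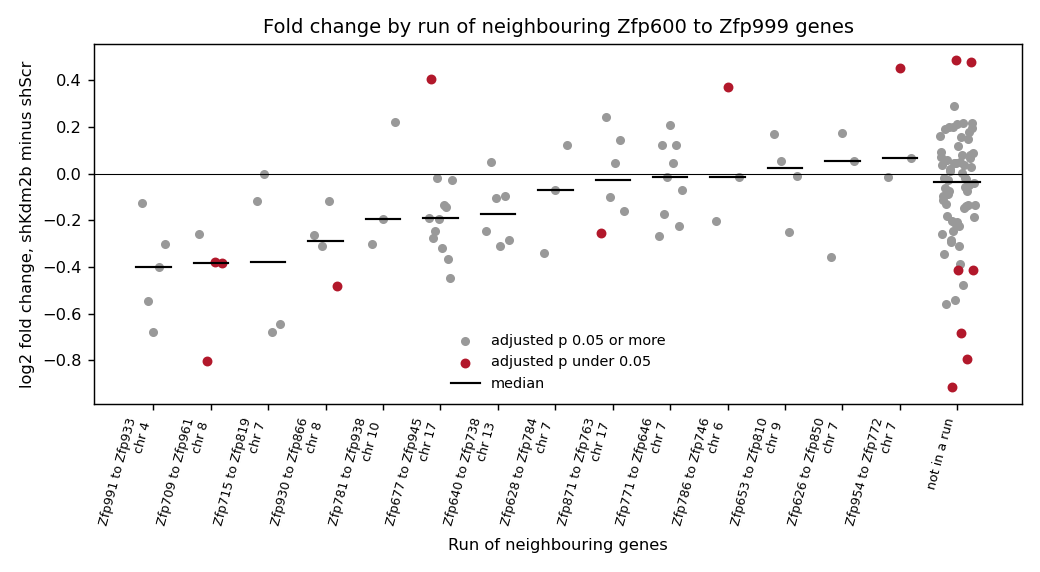
Log2 fold change (y axis) of the members in each of the 14 runs of neighbouring genes (x axis, ordered by median) and of the 70 members outside runs; points are genes, red where the adjusted p is under 0.05, and bars are medians. Run medians extend from -0.40 to 0.07.

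Cofactors through which KRAB zinc finger proteins act were read as a list. The list also holds Zfp57, itself a zinc finger gene, and the histone demethylase gene Kdm4c, neither of which passed the adjusted p. Of 27 genes measured out of 30 listed, none met the gene rule in limma, 4 passed the adjusted p while lower, none while higher, and 23 did not pass. At an unadjusted p under 0.05, 16 were lower and none higher, against 13.6% and 16.8% of all genes. Their median log2 fold change was -0.20 with 25 genes below 0. Over all genes the median was 0.05, with 38.3% below 0 and 4.55% past the adjusted p while lower. Cbx5, which encodes HP1 alpha, fell by 0.49 (SE 0.06, limma adjusted p = 0.00418), and Resf1, a retroelement silencing factor gene, by 0.49 (SE 0.12, limma adjusted p = 0.0399). Setdb1 and Ehmt2, genes of the histone H3 lysine methyltransferases SETDB1 and G9a, fell by 0.29 and 0.25 (SEs 0.06 and 0.06, limma adjusted p = 0.0302 and 0.0370). Trim28 read 13.66 to 13.92 in the shKdm2b arrays and 13.90 to 14.06 in the shScr arrays, which overlap, with a log2 fold change of -0.18 (SE 0.07, limma adjusted p = 0.140).

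Markers of other cell states were read in the same arrays. All 7 measured markers of the 2-cell-like state, out of 16 listed, fell, and their mean log2 signal was 6.40 to 6.56 in shKdm2b arrays and 8.64 to 9.90 in shScr arrays. Of 5 neural markers 2 fell, with list means of 9.08 to 9.25 against 9.53 to 10.02, and of 6 trophoblast markers 1 fell, with 9.24 to 9.81 against 9.62 to 10.14. At an unadjusted p under 0.05 in limma, 3 neural markers were lower and 1 (Tubb3) higher, and 2 trophoblast markers were lower and none higher. Among 6 fibroblast markers 1 rose, with list means of 9.48 to 9.59 against 9.38 to 9.89, while 1 (Vim) was lower at an unadjusted p under 0.05 in limma. None of 7 primitive endoderm markers met the gene rule in limma, and 1 (Sox7) was higher past the adjusted p. Of these 7, 4 were higher and 1 (Dab2) lower at an unadjusted p under 0.05 in limma. List means were 8.81 to 9.12 against 8.79 to 8.97. Dab2 had a log2 fold change of -0.95 (SE 0.25, limma adjusted p = 0.0525). The part of these cells in the values of the zinc finger genes was not tested.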

How the data were processed

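RNA of 4 shKdm2b and 4 shScr samples was measured on the Mouse Gene ST array of Affymetrix (version 1.0). The authors deposited log2 values per probe set, normalised by RMA with the oligo package (version 1.18.1 per the submitters' processing notes), and these were used as deposited. Array medians ran from 8.47 to 8.53. RMA includes quantile normalisation, so that a shift shared by most genes would not be seen, and the number of arrays limits the precision. The build behind the probe sets is not given in the sources used here. Symbols were taken from the platform annotation and updated through Entrez numbers with the RefSeq gene table of GRCm38.p6, which also gave chromosomes and the order of neighbours. The table of promoter sequences is RefSeq's too.

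All 35556 probe sets were fitted together with limma 3.58.1 in R 4.3.3 (a mean per group, moderated by eBayes). P-values were adjusted by Benjamini-Hochberg across all of them, and the script was tested on simulated data. Genes were then read from the 21789 probe sets that name 1 gene. For each gene the values shown are those of its most significant probe set. Replicate numbers pair the samples. The labels say that knockdown and control were collected in parallel, and residuals of arrays with the same number correlated at 0.118 to 0.355, against -0.231 to 0.0747 for other pairs. Members, lists and runs were chosen with earlier results of these data known, and the letters of the motifs after the first results of this work. The genes described are those called by the gene rule, those past the adjusted p short of 1.5-fold, the 6 uncalled with the largest change, the 6 whose intervals reach least far from 0, those with the highest and lowest signal, 19 listed by name, Kdm2b and Trim28. Of the 19, Zfp932, Zfp990 and Zfp992 stood only on probe sets of several genes and Zfp989 had no entry. The 16 alternatives comprised the block, each array left out, shared passages, a low-signal filter (25th percentile), median centring, array weights, 1 probe set per gene, a trended robust eBayes and platform symbols.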

Additional observations from a re-analysis of the deposited data

Results flagged for a closer look

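In 7 of 80 groups of 4 arrays, over 40 genes, 1 array stood apart from the other arrays of its group. The criterion is a gap, as a share of the group's range, above Dixon's critical value for 4 values, which chance exceeds in about 5% of groups. Zfp931, a zinc finger gene on chromosome 2, had such an array in both groups, with 8.52 in shKdm2b replicate 1 (nearest array 8.96) and 9.03 in shScr replicate 3 (nearest 9.51). In Zfp704, which rose, shKdm2b replicate 3 read 10.63 (nearest 10.80), still above every control array. Zfp644 read 11.32 in shScr replicate 3 (nearest 11.03). Zfp746 read 10.29 in shScr replicate 2 (nearest 10.51). Zfp706 read 13.32 in shKdm2b replicate 4 (nearest 13.44), and Zfp735 (log2 fold change -0.11, limma adjusted p = 0.413) read 5.47 in shScr replicate 2 (nearest 5.20).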

How the results depend on the processing

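No gene from Zfp600 to Zfp999 was called higher under any of the 16 alternatives, and no described gene that passed the adjusted p changed direction. Members called lower numbered 1 to 6 when single arrays were left out (4 with all arrays), and members past the adjusted p 3 to 35 (15 with all arrays). The low end came without shKdm2b replicate 2, where 3.25% of all genes passed, and the high end without shKdm2b replicate 3, where 17.3% did, so that the members' count moved with that over the array. The median log2 fold change of the members then ran from -0.131 to -0.0555, and that of all genes from 0.0214 to 0.0624. Calls among Zfp1 to Zfp599 ran from 3 to 10 (5 with all arrays). With the replicate block 25 members passed, Zfp719, Zfp819, Zfp638 and Zfp644 among the described genes, and it changed no other call of a described gene. With only passages 28 to 30, 0 members were called or passed in limma, and 1 gene of Zfp1 to Zfp599 was called. The median of the members was then -0.0519, against 0.0187 over all genes. With array weights 42 members (30.2%) passed, against 27% of all genes in that fit. There 1 KRAB cofactor (Pphln1) was called and the median of the members was -0.0731, against 0.0417 over all genes. The median of the members was -0.0745 under the low-signal filter and -0.114 with arrays centred, against 0.0416 and 0.0274 over all genes. Centring thus lowered both medians. The causes of these differences were not tested. Over the described genes, 527 values kept their direction and side of the threshold, 73 no longer passed, 22 newly passed and 0 were called with reversed direction. Signals near the floor limit what can be read for 7 members whose mean lay under the 25th percentile.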

Other observations

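Member symbols also stood on 34 probe sets that name several genes, which were fitted but left out of the counts above. Of these, 30 lay below 0, with a median log2 fold change of -0.13, against 38.3% below 0 over all genes. They are not separate readings, since several name the same genes. A pair that name 17 genes each held the same values on every array. Some also name genes outside the zinc finger group, such as Tubb4b and Arid4b. A probe set of Zfp442, Zfp937 and 3300002I08Rik was lower past the adjusted p (-0.39, SE 0.09, limma adjusted p = 0.0311). The pair of probe sets that was higher past it both name Zfp772 with the predicted genes Gm3912 and Gm45351, at 0.69 and 0.71 (SEs 0.13 and 0.14, limma adjusted p = 0.0165 and 0.0192). The probe set of Zfp772 alone had 0.07 (SE 0.06, limma adjusted p = 0.498). Which of the named genes gave the rise cannot be told apart with these probes. Probe sets of Zfp932 with Gm15446 read -0.37 and -0.43 (limma adjusted p = 0.0709 and 0.0867).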
